A study of Homo sapiens with 8 samples.

Results

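The comparison was between 4 of the 8 libraries of the series: 2 libraries of MDA-MB-231 cells whose label names a CHD4 knockdown by hairpin (shCHD4) and 2 of the same line with a scrambled hairpin (shSC), all kept for 24 hours at 1% O2. The members were taken by these labels alone and described across all genes. MDA-MB-231 is a human breast cancer line without estrogen and progesterone receptors or HER2 amplification, grown in DMEM with serum. The other 4 libraries carry the same 2 labels at 20% O2, and polyadenylated RNA was sequenced in all 8. The labels give neither the hairpin sequence nor whether a line is a clone or a pool, and say nothing on whether replicates were separate cultures. The p-values therefore rest on the spread within these pairs of libraries, and that spread may be technical.

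CHD4 supplies the ATPase activity of NuRD, a complex that slides nucleosomes and, through its histone deacetylase subunits, strips acetyl marks off chromatin. Hypoxia-inducible factors (HIFs) are transcription factors whose alpha subunits are degraded when oxygen is plentiful and stabilised when it is scarce, and they raise genes of glucose uptake, glycolysis, angiogenesis and pH control. NF-kB factors are held in the cytoplasm by inhibitors until a signal frees them, and they raise genes of inflammatory cytokines and chemokines, which this breast cancer line is known to secrete. The comparison asks how RNA levels at low oxygen differed between the labels, in a study concerned with CHD4 and the response to hypoxia.

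The libraries labelled shCHD4 did not hold less CHD4 RNA. Its normalised read count (reads scaled by a factor for each library, with no correction for gene length) was 279.7 and 278 under shSC and 299 and 287 under the shCHD4 label. The shCHD4-labelled libraries had the higher values and the groups did not overlap, but the log2 difference of 0.07 ± 0.042 (SE) did not pass the test (limma, Benjamini-Hochberg adjusted p = 0.129). With quantile normalization CHD4 was 0.23 higher under the shCHD4 label (adjusted p = 9.03e-05), and relative to its 40 nearest genes it was 0.22 higher (adjusted p = 0.000261). The targeted RNA thus did not check the label, CHD4 protein was not measured here, and every difference here is one between libraries that carry these labels. All log2 differences are shCHD4 label minus shSC, on the log2(value + 0.5) scale, which understates the change of low genes.

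The 8 libraries held 24947627 to 31903585 gene-assigned reads, with 4.04% to 5.02% of them in the 10 most abundant genes. Between replicates, counts varied beyond sampling noise (chi-square over its degrees of freedom 2.12 to 4.48). At 1% O2 the 16 genes listed as markers of this line summed to 14740 to 14990 normalised reads under shSC and 14640 to 14660 under the shCHD4 label, with none at 0. These sums hide opposite moves, since 6 of the 16 were higher and 8 lower, and 1 of them, SPARC, was below 1 under shSC. Of 18 leukocyte markers listed, 12 were in the table, and 4 averaged at least 1 under shSC and 5 under the shCHD4 label. CD3D and CD3G had no read under shSC and CD3G none under the shCHD4 label. The 12 summed to 170.3 to 172.2 and 172.3 to 177.6. Of 12 fibroblast markers, 3 averaged at least 1 under each label. DCN and POSTN were at 0 under shSC and COL1A2, DCN and THY1 under the shCHD4 label (sums of the 12 were 26.7 to 28.1 and 38.0 to 38.8). The 14 luminal breast markers summed to 937 to 990.2 and 672.9 to 685.5. Of these, 9 and 10 averaged at least 1, and PGR was at 0 under the shCHD4 label. Genes of chromosome 13 had a median log2 difference of 0.74 at 1% O2 and 0.69 at 20% O2, with 190 of 229 tested higher (83.0%). The median was 0.28 on chromosome 6, 0.23 on chromosome 7 and -0.31 on chromosome 8, and lay from -0.22 to 0.18 on the others. The part that such chromosome-wide differences take in single genes was tested only by centring each library on the 40 nearest tested genes, and values relative to those neighbours are given beside some of the genes and lists below.

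Of 12645 genes tested, 9782 (77.4%) passed the threshold of a false discovery rate of 0.05 at 1% O2, 4828 (38.2%) higher and 4954 (39.2%) lower under the shCHD4 label. Counts of list members that passed, given below, are to be read beside these shares. The libraries of the 2 labels did not overlap for 11234 genes. Because most genes passed, a change of 2-fold or more was used to single genes out: 717 genes (5.67%) were higher and 1083 (8.56%) lower by that much. With a mean of at least 5, 464 were higher by 2-fold or more. On the log2(value + 0.5) scale, which shrinks the folds of low genes, 40 genes were at least 16-fold lower and 8 at least 16-fold higher. On that scale the plot of difference against level shows the deeper falls, such as IL8 with its high counts, and the lower reach of the rises. Folds shrink most where 1 label holds little RNA. That was so under shSC for the largest rises, and under the shCHD4 label for falls such as CXCL3 and C3. The reach of both is therefore understated. RNA was taken from bulk cultures, so fewer cells of a kind and less RNA per cell cannot be told apart.

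**Figure D1:**
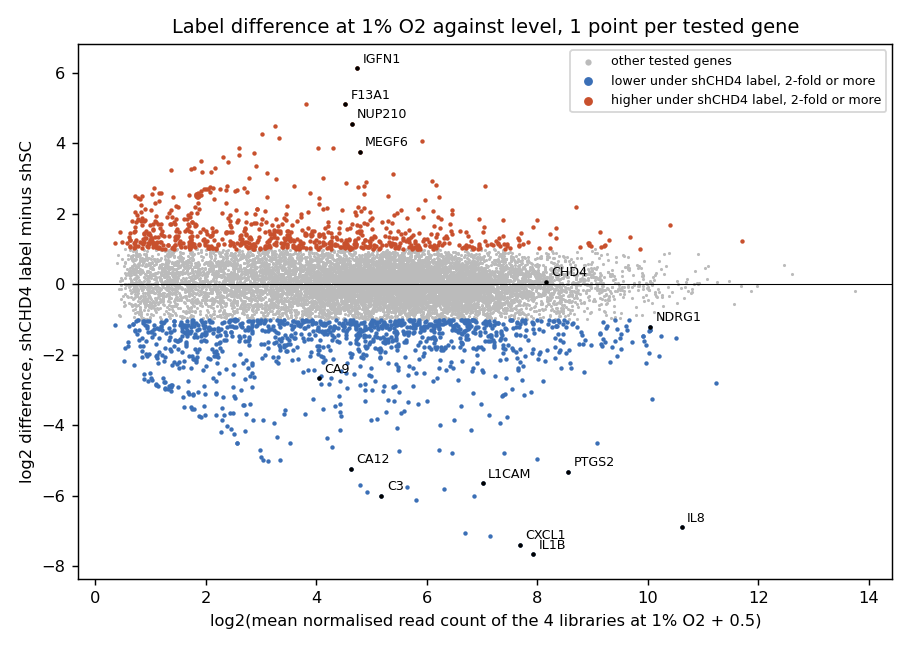
Each point is 1 of 12645 tested genes, with the log2 of its mean normalised read count over the 4 libraries at 1% O2 (plus 0.5) on the x axis and its log2 difference between labels on the y axis. Blue points are 1083 genes lower and orange points 717 genes higher by 2-fold or more, and the largest falls, such as IL1B at -7.67, are further from 0 than the largest rise, IGFN1 at 6.13.

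On the log2(value + 0.5) scale, the largest falls were in genes of secreted inflammatory factors. Chemokines, which draw neutrophils and other leukocytes along a gradient, fell in 8 of 8 tested members, all by 2-fold or more (median log2 difference -4.52, against -0.0067 over all tested genes). Of the 17 genes listed, 16 were matched to the table, and 8 of these were too low to test. The filter, which asks that the 8 libraries average 1 or more, shapes this count: a member such as CXCL3 passed it only through its shSC level, and a member low under both labels was not tested. With a mean of at least 5, 4 chemokines were tested and all 4 fell. CXCL1, a ligand of the neutrophil receptor CXCR2, had normalised read counts of 407 and 408 under shSC and 1.96 and 1.91 under the shCHD4 label, a 168-fold fall (a log2 difference of -7.39 ± 0.074 (SE), adjusted p = 1.83e-22). CXCL2, its close relative, had 202 and 208 under shSC and 0.996 and 1.06 under the shCHD4 label (135-fold, adjusted p = 1.83e-22). CXCL3, the third of this cluster, had 55.7 and 62.1 under shSC and 0.5495 and 0.4596 under the shCHD4 label (59.1-fold, adjusted p = 4.89e-19). The 3 genes are close in sequence, so the authors' counting could have split reads between them. Each was high in both shSC libraries and low in both shCHD4-labelled ones, which was part of the rule that chose it. IL8 (CXCL8), the best known neutrophil chemokine, went from 3233 and 2978 to 24.4 and 27.01 (119-fold, a log2 difference of -6.89 ± 0.051 (SE), adjusted p = 2.82e-24). The other members, CCL28, CXCL11, CCL20 and CXCL10, had log2 differences of -3.15 to -2.66.

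The start regions of these genes are shown because members that fell together can be compared by sequence. Each window is 300 bases from RefSeq (GRCh38.p14), 250 before and 50 after the annotated transcription start, written 5′ to 3′ on the gene's strand. Capitals mark the NF-kB consensus in CXCL1, CXCL2, CXCL3 and IL6, the AP-1 motif TGANTCA in IL8 and, in CA9, the HIF core motif (ACGTG or GCGTG) on the opposite strand, which reads CACGT on the strand printed.
CXCL1, chr4:73869143-73869442, plus strand: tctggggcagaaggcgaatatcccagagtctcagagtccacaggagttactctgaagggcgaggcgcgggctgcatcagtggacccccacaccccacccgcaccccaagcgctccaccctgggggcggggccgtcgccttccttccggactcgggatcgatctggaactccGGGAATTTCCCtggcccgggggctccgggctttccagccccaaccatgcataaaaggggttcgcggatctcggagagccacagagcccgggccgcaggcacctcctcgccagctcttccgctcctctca
CXCL2, chr4:74099146-74099445, minus strand: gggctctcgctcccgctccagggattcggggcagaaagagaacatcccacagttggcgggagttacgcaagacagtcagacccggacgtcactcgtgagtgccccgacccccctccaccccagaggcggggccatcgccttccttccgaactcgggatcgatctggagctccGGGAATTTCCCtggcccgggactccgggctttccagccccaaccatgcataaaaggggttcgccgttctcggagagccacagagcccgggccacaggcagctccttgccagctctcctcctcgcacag
CXCL3, chr4:74038640-74038939, minus strand: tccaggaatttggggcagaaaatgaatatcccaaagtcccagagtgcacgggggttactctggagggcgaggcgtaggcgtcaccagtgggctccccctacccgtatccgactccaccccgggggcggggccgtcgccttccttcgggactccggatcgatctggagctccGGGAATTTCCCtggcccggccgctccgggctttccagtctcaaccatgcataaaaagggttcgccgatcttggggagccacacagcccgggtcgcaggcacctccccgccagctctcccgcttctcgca
IL6, chr7:22726950-22727249, plus strand: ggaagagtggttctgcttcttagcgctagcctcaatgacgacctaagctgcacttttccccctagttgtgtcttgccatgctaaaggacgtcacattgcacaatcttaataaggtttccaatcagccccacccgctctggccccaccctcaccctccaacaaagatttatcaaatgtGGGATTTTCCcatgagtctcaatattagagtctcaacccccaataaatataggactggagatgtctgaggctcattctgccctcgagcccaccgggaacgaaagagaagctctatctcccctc
IL8 (RefSeq CXCL8), chr4:73740319-73740618, plus strand: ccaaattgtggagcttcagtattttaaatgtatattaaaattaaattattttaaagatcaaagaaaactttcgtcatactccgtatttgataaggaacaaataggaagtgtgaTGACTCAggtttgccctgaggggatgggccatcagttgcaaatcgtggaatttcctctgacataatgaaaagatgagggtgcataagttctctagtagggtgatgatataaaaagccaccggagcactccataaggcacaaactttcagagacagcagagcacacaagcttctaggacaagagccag
CA9, chr9:35673678-35673977, plus strand: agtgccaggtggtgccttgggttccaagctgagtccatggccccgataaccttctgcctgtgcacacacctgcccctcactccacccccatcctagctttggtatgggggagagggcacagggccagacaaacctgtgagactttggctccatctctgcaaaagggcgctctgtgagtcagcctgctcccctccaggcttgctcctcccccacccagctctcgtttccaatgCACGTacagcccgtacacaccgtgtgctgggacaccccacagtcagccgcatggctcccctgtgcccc
The marked NF-kB run began 79, 78 and 79 bases before the start in CXCL1, CXCL2 and CXCL3, with the same 11 letters in each, and 73 bases before it in IL6. Searched on both strands, the NF-kB consensus was in 11.3% of all 35116 windows and 12.9% of 10035 windows of tested genes. It was in 17.2% of 801 windows of genes lower by 2-fold or more and 11.9% of 563 of genes higher by that much. By list, it was in 6 of 8 chemokine, 4 of 11 cytokine, 7 of 18 NF-kB, 3 of 43 HIF target and 1 of 19 ATF4 windows. The windows of CXCL1, CXCL2 and CXCL3, among the chemokines, are alike in sequence and are not separate observations. The AP-1 motif was in 7.71% of all windows and 4.47% of windows of tested genes. By list, AP-1 was in 2 of 8 chemokine, 5 of 11 cytokine, 2 of 43 HIF target and 3 of 19 ATF4 windows. By 2-fold or more, it was in 6.24% of windows of lower genes and 6.57% of windows of higher genes. None of 18 windows of the NF-kB list held it. The HIF core was in 48.4% of all windows, 64.0% of windows of tested genes, 35 of 43 HIF target windows (81.4%) and 14 of 19 windows of the ATF4 list (73.7%). Of the other lists, 2 of 8 chemokine, 2 of 11 cytokine and 10 of 18 NF-kB windows held the HIF core. It was in 59.3% of windows of genes lower and 59.3% of genes higher by 2-fold or more. The motifs were searched one by one and can overlap. A match describes letters in the window and not binding. The NF-kB search asked for GGGRNNYYCC, with R for A or G, Y for C or T and N for any base. The IL8 window holds TGGAATTTCC, which differs from that pattern only in its first letter and so was not counted.

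Cytokines and colony-stimulating factors, which carry signals between immune and tumour cells, fell in 14 of 17 tested members, all 14 by 2-fold or more, and rose in 1 (median -3.46). IL1B, a secreted trigger of inflammation, had 492 and 477 under shSC and 1.75 and 2.02 under the shCHD4 label, a 204-fold fall on the log2(value + 0.5) scale (a log2 difference of -7.67 ± 0.094 (SE), adjusted p = 3.3e-21). IL1A, which acts on the same receptor, had 307 and 257 under shSC and 1.61 and 1.34 under the shCHD4 label (143-fold, adjusted p = 1.19e-19). IL6, the ligand that activates STAT3 through gp130, had 241 and 213 under shSC and 3.19 and 2.899 under the shCHD4 label (64.1-fold, adjusted p = 4.57e-21). In each of these 3 genes both shSC libraries were far above both shCHD4-labelled ones, but lack of overlap was part of the rule that chose them. CSF3, the granulocyte growth factor, fell 55.9-fold, from 153 and 157 to 2.44 and 2.12 (adjusted p = 1.97e-20). CSF2, which acts on granulocytes and macrophages, fell 54.5-fold, from 95.4 and 101 to 1.202 and 1.41 (adjusted p = 5.42e-20). IL24, a cytokine of the IL-10 family, fell 69.8-fold, from 131 and 89.7 to 1.17 and 0.955 (adjusted p = 4.05e-18). IL18, which is made as a precursor and cut by caspase-1, was the 1 member to rise, from 9.08 and 8.43 to 23.3 and 23.5 (log2 difference 1.37, adjusted p = 9.39e-12). It was named after its value was seen, as were ALDOC, PDK3, ADM, CA8, PDGFA, KLF2, SLC7A5 and the genes without reads named further on.

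**Figure D2:**
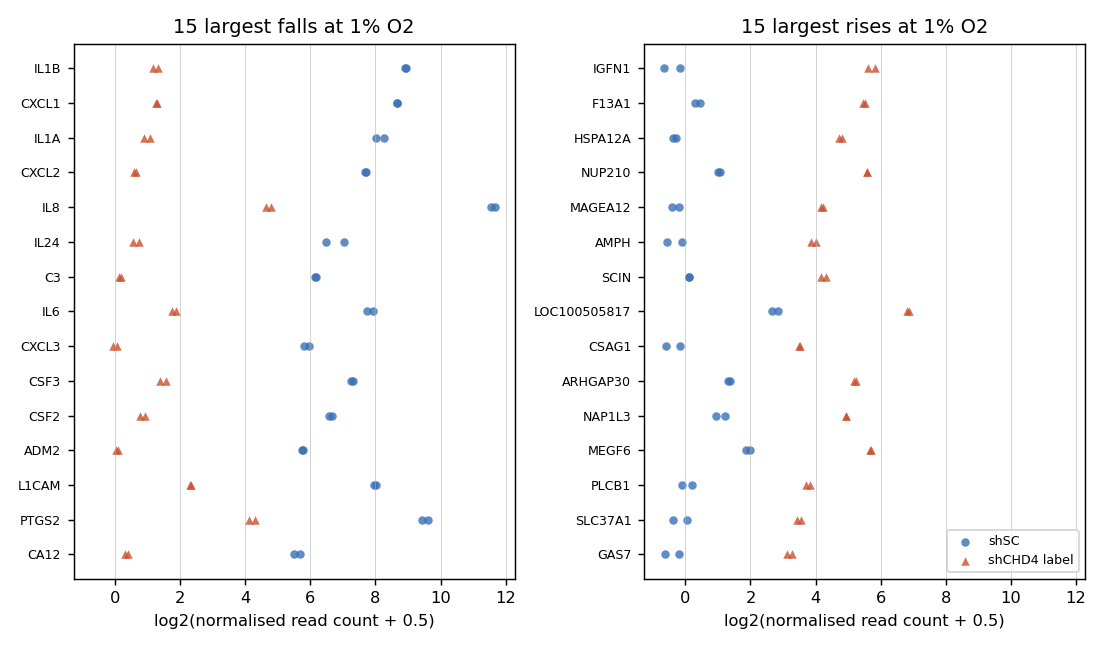
Values of the 15 largest falls (left) and 15 largest rises (right) in each library at 1% O2, as log2(normalised read count + 0.5) on the x axis. Circles are the 2 shSC libraries and triangles the 2 shCHD4-labelled libraries, and the 30 genes were chosen among those whose libraries do not overlap between labels.

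Most parts of the NF-kB pathway fell as well, in 20 of 21 tested genes of its subunits and inhibitors, 14 of them by 2-fold or more (median -1.58). None was higher, against 1 with quantile normalization and 1 relative to neighbouring genes. The exception was the kinase CHUK, at 0.09 and not past the threshold. Among the subunits, RELB fell from 126 and 125 to 19.7 and 18.9 (log2 difference -2.67, adjusted p = 8.76e-18). NFKB2, NFKB1, REL and RELA had differences of -1.83, -1.72, -1.09 and -0.94. Of the feedback inhibitors, TNFAIP3, the deubiquitinase A20, fell from 199 and 220.0 to 11.3 and 11.6 (a log2 difference of -4.13 ± 0.061 (SE), adjusted p = 3.91e-20), and NFKBIA, which holds NF-kB in the cytoplasm, had a difference of -1.77. TRAF1, an adaptor of the TNF receptor family, fell from 323 and 327 to 11.1 and 11.6 (log2 difference -4.78, adjusted p = 7.48e-22). BIRC3, a ubiquitin ligase that acts at the same receptors, fell from 385 and 393 to 43.7 and 43.8 (log2 difference -3.14, adjusted p = 2.6e-19). In all 4 of the genes given by library the shSC values lay above every shCHD4-labelled value. Such lack of overlap held for 11234 of 12645 tested genes, and these 4 were chosen by their small p.

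Complement and coagulation genes fell in 13 of 15 tested members, 10 of them by 2-fold or more (median -1.63), and CD46 and PROCR rose by 0.25 and 0.33. C3, the central complement protein, fell from 72.1 and 69.8 to 0.584 and 0.636 (64.4-fold, a log2 difference of -6.01 ± 0.10 (SE), adjusted p = 2.62e-19). CFB, the protease of the alternative pathway, fell from 52.8 and 49.2 to 7.35 and 6.26 (log2 difference -2.82, adjusted p = 1.97e-15). F3, tissue factor, which starts clotting, fell from 927 and 879 to 289.7 and 286 (-1.65, adjusted p = 8.13e-17), and THBD, which turns thrombin against clotting, from 340.2 and 301 to 77.6 and 72.7 (-2.08, adjusted p = 1.73e-16). Prostaglandin genes did not move together: 6 of 10 rose (60%) and 3 fell (30%), against 38.2% and 39.2% of all tested genes. Relative to neighbouring genes 5 fell, and the median went from 0.25 to 0.06. PTGS2, the inducible cyclooxygenase that starts prostaglandin synthesis, fell from 778 and 691 to 19.1 and 16.8 (39.8-fold, a log2 difference of -5.32 ± 0.068 (SE), adjusted p = 5.1e-21). HPGD, which inactivates prostaglandins, rose from 0.179 and 0.3696 to 2.198 and 2.51 (log2 difference 1.89, adjusted p = 2.88e-08). PTGES2, a prostaglandin E synthase, differed by -0.55 (adjusted p = 1.62e-07), or -0.18 relative to neighbouring genes. ABCC4, an exporter on chromosome 13, was 0.57 higher (adjusted p = 1.19e-08) but 0.28 lower relative to its neighbours.

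HIF target genes were lower under the shCHD4 label in 37 of 51 tested members (72.55%) and higher in 7 (13.7%), against 39.2% and 38.2% of all tested genes. By 2-fold or more, 13 were lower (25.5%) and 2 higher (3.92%), against 8.56% and 5.67% of all tested genes. The median log2 difference was -0.31 at 1% O2, -0.24 with quantile normalization, and -0.27 at 20% O2. At 20% O2 33 were lower and 9 higher, against 38.6% and 37.0% of all tested genes. The size of the fall varied widely among them. CA12, a carbonic anhydrase at the cell surface, had 44.97 and 50.9 under shSC and 0.824 and 0.742 under the shCHD4 label (37.7-fold, a log2 difference of -5.24 ± 0.11 (SE), adjusted p = 4.05e-18). IGFBP3, which binds insulin-like growth factors, had 298 and 299.6 under shSC and 32.9 and 33.8 under the shCHD4 label (log2 difference -3.14, adjusted p = 1.19e-19). STC1, a secreted glycoprotein, had 289 and 275 under shSC and 64.6 and 63.6 under the shCHD4 label (-2.13, adjusted p = 3.05e-17), and DDIT4, an inhibitor of mTORC1 signalling, 667 and 716 under shSC and 216 and 213 under the shCHD4 label (-1.68, adjusted p = 6.22e-16). VEGFA, the vascular growth factor, had 983 and 993 under shSC and 409.8 and 404 under the shCHD4 label (a log2 difference of -1.28 ± 0.04 (SE), adjusted p = 1.67e-15). NDRG1, a widely used hypoxia marker, had 1449 and 1492 under shSC and 631 and 640.4 under the shCHD4 label (a log2 difference of -1.21 ± 0.042 (SE), adjusted p = 7.43e-15), but its difference relative to neighbouring genes was -0.18 (adjusted p = 0.00749). The mitophagy receptors changed less: BNIP3 had 395 and 440.5 under shSC and 326 and 338 under the shCHD4 label (-0.33, adjusted p = 2.46e-05, or -0.15 with quantile normalization), and BNIP3L had 411 and 426 under shSC and 302 and 303 under the shCHD4 label (-0.47, adjusted p = 8.69e-08, or -0.28 with quantile normalization or neighbour centring). The members that rose by 2-fold or more were ALDOC, an aldolase, at 1.08, and PDK3, a kinase that restrains pyruvate dehydrogenase, at 1.31. ADM, the vasodilator adrenomedullin, rose by 0.54 (adjusted p = 5.13e-09).

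The HIF targets still stood higher at 1% than at 20% O2 under both labels, past the threshold in 49 of 51 under shSC and 50 of 51 under the shCHD4 label, against 17.4% and 12.3% of all tested genes. CA9, the carbonic anhydrase that acidifies the space outside hypoxic cells, had 0.207 and 0.483 at 20% O2 and 26.99 and 28.97 at 1% O2 under shSC, and 0.1497 and 0.0345 and 3.54 and 4.49 under the shCHD4 label. Its label difference at 1% O2 was -2.66 ± 0.17 (SE, adjusted p = 7.28e-11). For NDRG1 the 20% O2 values were 97.2 and 98.2 under shSC and 68.3 and 65.6 under the shCHD4 label, and for BNIP3 72.7 and 75.9 and 75.6 and 69.7, so for both genes the 2 labels lay closer at 20% than at 1% O2. DDIT4 was the other way round, with 604 and 567 under shSC and 38.99 and 36.6 under the shCHD4 label at 20% O2, a wider gap than at 1% O2. VEGFA, at 666 and 666 and 185 and 179 at 20% O2, also had the wider gap there. The tests of these differences are given with the comparison against 20% O2.

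**Figure D3:**
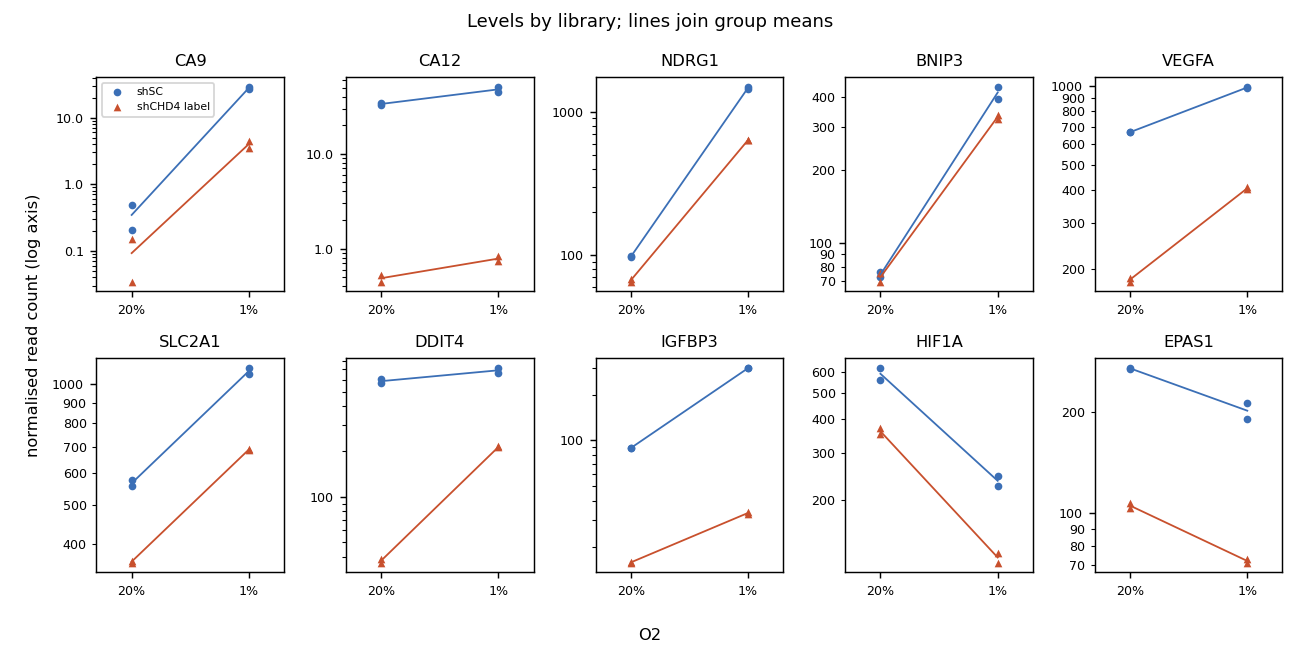
Normalised read counts (log axis, a scale of its own in each panel) of 10 genes of the HIF pathway at 20% and 1% O2, with points for the 2 libraries of each group and lines joining group means. At 1% O2 the shCHD4-labelled libraries (triangles) lie below the shSC libraries (circles) in all 10 panels. All 10 genes shown passed as lower, and targets that rose, such as ADM, ALDOC and PDK3, are not drawn. Of 51 tested HIF targets 37 were lower, 7 higher and 7 did not pass. Lack of overlap between labels held for 11234 of 12645 tested genes.

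The HIF machinery was lower in 9 of 15 tested components (60%) and higher in 2 (13.3%), against 39.2% and 38.2% of all tested genes. The median log2 difference was -0.33, or -0.22 with quantile normalization and -0.19 relative to neighbouring genes. HIF1A, the main oxygen-regulated subunit, had 246 and 225 under shSC and 117 and 128 under the shCHD4 label (a log2 difference of -0.94 ± 0.057 (SE), adjusted p = 2.85e-11), and EPAS1, which encodes HIF-2 alpha, had 213 and 191 under shSC and 72.98 and 71.3 under the shCHD4 label (-1.48, adjusted p = 7.6e-15). At 20% O2 HIF1A stood at 559 and 618 under shSC and 350.5 and 369 under the shCHD4 label, above its 1% O2 values under either label. VHL, which marks HIF alpha subunits for destruction, fell from 219.8 and 218 to 85.8 and 86.4 (-1.34, adjusted p = 4.77e-15). The coactivators EP300 and CREBBP fell, with differences of -1.10 and -0.98 (adjusted p = 8.94e-12 and 2.69e-12). ARNT, the stable partner of the alpha subunits, differed by 0.23 and TCEB1, a partner of VHL, by 0.28, both higher.

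By role, the pH regulators were lower in 7 of 10 tested members and higher in 3, with 5 lower by 2-fold or more (median -1.02). Beside CA9 and CA12, the bicarbonate carrier SLC4A7 fell from 248 and 205 to 72.4 and 70.5 (-1.65, adjusted p = 3.65e-12, or -1.08 relative to its neighbours). CA8, which is related to the carbonic anhydrases but lacks their activity, rose from 0.286 and 0.638 to 2.68 and 2.93 (1.80, adjusted p = 4.48e-08). Glycolysis and lactate export genes were lower in 15 of 24 (62.5%) and higher in 5 (20.8%), against 39.2% and 38.2% of all tested genes. Only 1 in each direction reached 2-fold, and with quantile normalization 9 were lower and the median moved from -0.19 to -0.035. Without shCHD4 1% O2 replicate 2, or without shSC 1% O2 replicate 1, 3 were higher. HK2, the inducible hexokinase, fell from 425 and 406 to 249 and 239.5 (-0.77, adjusted p = 1.23e-11). The glucose transporters SLC2A1, at 1061 and 1099 under shSC and 686 and 691 under the shCHD4 label, and SLC2A3, at 82.3 and 78.9 under shSC and 49.4 and 50.2 under the shCHD4 label, had differences of -0.65 and -0.69 (adjusted p = 4.37e-11 and 3.21e-09), and that of SLC2A1 was -0.34 relative to its neighbours. SLC16A1, the lactate carrier MCT1, fell from 17.9 and 16.2 to 4.95 and 4.88 (-1.70, adjusted p = 2.61e-10). HK2, SLC2A1 and SLC2A3 are also on the HIF target list, so these lists are not separate sets.

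Secreted angiogenic factors were lower in 11 of 14, of which 8 by 2-fold or more, and higher in 2 (median -1.23). EDN1, the vasoconstrictor endothelin-1, fell from 182 and 189 to 50.9 and 52.6 (-1.83, adjusted p = 6.29e-16), and THBS1, a matrix protein that inhibits angiogenesis, from 2139.8 and 2194 to 744 and 749.9 (-1.54, adjusted p = 1.22e-16). PDGFA, a mitogen for mesenchymal cells, rose from 11.9 and 10.4 to 38.8 and 37.2 (1.72, adjusted p = 3.32e-12). ADM2, a vasodilator peptide related to ADM and outside these lists, fell from 54.8 and 52.6 to 0.515 and 0.566 (52.1-fold, adjusted p = 1.21e-18). Collagen modifying enzymes were lower in 12 of 16 and higher in none, though relative to neighbouring genes 4 were higher and with quantile normalization 1 was (median -0.51). LOX, which crosslinks collagen and elastin, fell from 249.6 and 266 to 72.3 and 72.98 (a log2 difference of -1.82 ± 0.053 (SE), adjusted p = 6.49e-16). The lysyl hydroxylase PLOD2 had a difference of -0.90 (-0.60 relative to its neighbours), the prolyl hydroxylase subunit P4HA2 one of -0.95 and the collagen chaperone SERPINH1 one of -0.73 (adjusted p = 2.87e-12, 5.87e-11 and 1.29e-10).

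Genes that respond to growth factor and stress signals were mostly lower. AP-1 subunits and immediate early genes, transcription factors induced within minutes of a stimulus, fell in 17 of 19, 12 of them by 2-fold or more (median -1.77). EGR1, a zinc finger factor, fell from 273 and 328 to 17.04 and 21.1 (a log2 difference of -3.94 ± 0.084 (SE), adjusted p = 6.74e-18). MYC, the growth regulator, fell from 652 and 655 to 126 and 123 (-2.39, adjusted p = 3.06e-19, or -1.42 relative to its neighbours). KLF4 fell from 339 and 341 to 63.7 and 60.7 (-2.44, adjusted p = 1.13e-18) and MAFF from 267 and 248 to 41.4 and 41.8 (-2.61, adjusted p = 1.69e-18), and both encode transcription factors. The 1 member to rise was KLF2, from 13.7 and 13.6 to 28.5 and 28.99 (1.05, adjusted p = 1.39e-10). JUND, at -0.08, did not pass.

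Feedback genes of the MAPK pathway fell in 12 of 16 (75%) and rose in 3 (18.75%), against 39.2% and 38.2% of all tested genes (median -1.07). The dual-specificity phosphatases, which switch off MAP kinases, included DUSP1, from 494 and 462 to 68.3 and 72.98 (-2.75, adjusted p = 4.89e-19). DUSP5 went from 264 and 257 to 57.6 and 59.6 (-2.14, adjusted p = 8.11e-18) and DUSP10 from 68.5 and 68.5 to 19.4 and 20.2 (-1.76, adjusted p = 3.32e-15). PHLDA1, which is induced by the same pathway, fell from 1662 and 1622 to 345 and 353 (-2.23, adjusted p = 1.63e-18). The members that rose were SPRY1 (0.83), SPRY2 (0.34) and DUSP4 (0.14). Among EGFR family receptors and their ligands, 6 of 9 fell (66.7%) and 3 rose (33.3%), against 39.2% and 38.2% of all tested genes. With a mean of at least 5, 1 of these rose. The EGFR ligand HBEGF fell from 593 and 563 to 111 and 112 (-2.37, adjusted p = 4.89e-19) and TGFA from 234 and 232 to 89.3 and 89.98 (-1.37, adjusted p = 3.65e-15). The receptor EGFR itself fell from 669 and 591 to 371 and 343 (-0.82, adjusted p = 1.01e-10), and NRG1, a ligand of ERBB3 and ERBB4, from 104 and 91.3 to 47.9 and 46.6 (-1.04, adjusted p = 7.61e-12).

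Genes raised by ATF4 when amino acids run short fell in 22 of 24, 18 of them by 2-fold or more (median -1.42). TRIB3, a pseudokinase, fell from 327 and 322 to 24.4 and 22.3 (a log2 difference of -3.77 ± 0.054 (SE), adjusted p = 3.31e-20). SESN2, a leucine sensor that restrains mTORC1, fell from 166 and 169 to 10.9 and 11.4 (-3.85, adjusted p = 8.67e-20), and CTH, which makes cysteine from cystathionine, from 190.4 and 169 to 16.3 and 15.8 (-3.44, adjusted p = 3.9e-19). CEBPB, a partner of ATF4, fell from 348 and 354 to 85.1 and 83.6 (-2.05, adjusted p = 4.02e-17), and ATF4 itself had a difference of -1.06. SLC7A11, the cystine importer that is also an NRF2 target, fell from 473 and 445 to 103 and 100.1 (-2.17, adjusted p = 2.37e-15). The leucine importer SLC7A5, at 1433 and 1415 under shSC and 1559.9 and 1498 under the shCHD4 label, was 0.10 higher (adjusted p = 0.0338). That call was lost with no filter, with no variance trend and without any of shCHD4 1% O2 replicate 1, shSC 1% O2 replicate 1 or shSC 1% O2 replicate 2. Relative to its neighbours SLC7A5 was 0.47 lower (adjusted p = 2.79e-08). ATF5, the other member that was not lower, did not pass at 0.05.

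**Figure D4:**
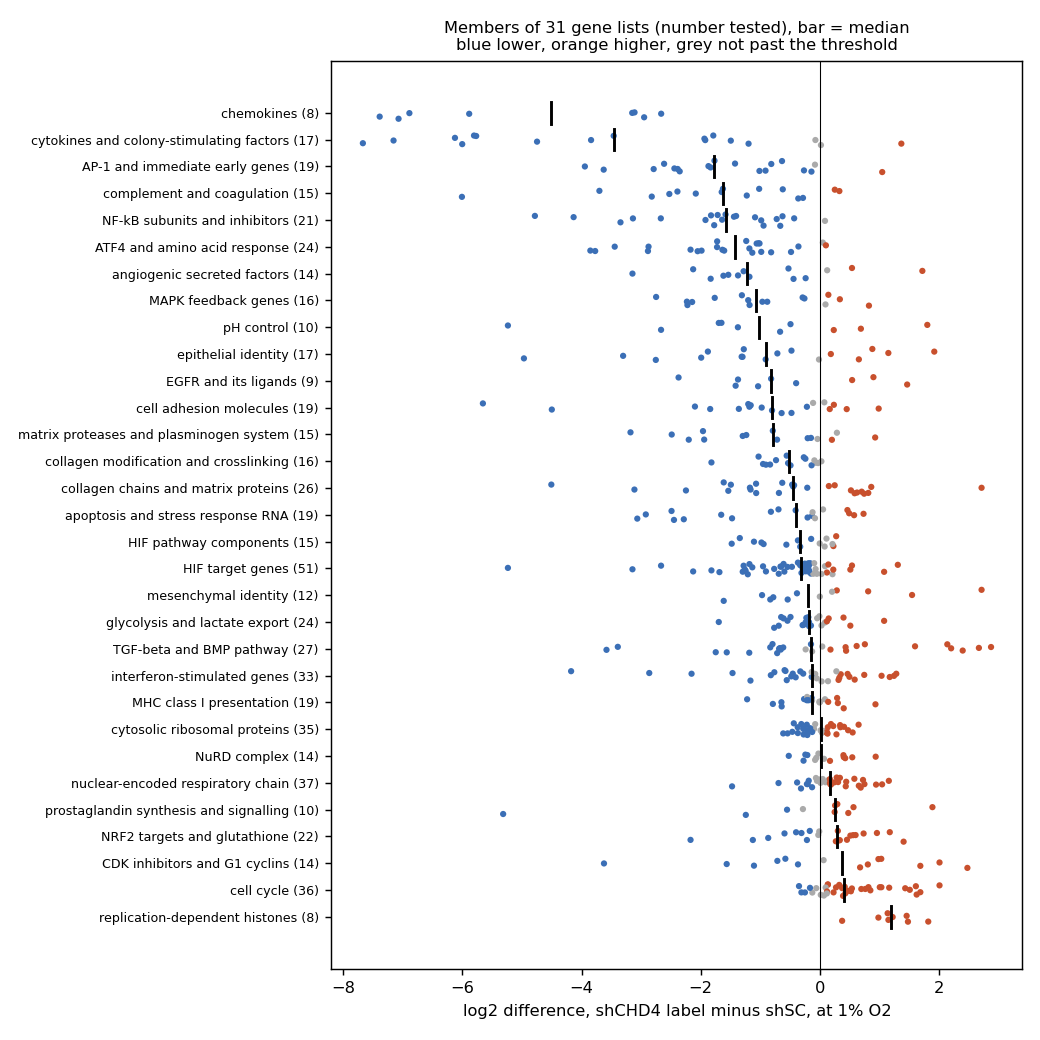
Log2 differences between labels at 1% O2 (x axis) for the tested members of 31 gene lists (rows, with the number tested), 1 point per gene and a black bar at each list's median. Blue points passed the threshold as lower, orange points as higher and grey points did not pass, and the medians run from -4.52 for chemokines to 1.19 for histones.

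Genes of the cell surface and the matrix fell more often than they rose. Adhesion molecules were lower in 13 of 19 (68.4%) and higher in 4 (21.05%), against 39.2% and 38.2% of all tested genes. Fewer were higher without shSC 1% O2 replicate 1. L1CAM, an adhesion protein of neurons and invasive tumours, fell from 247 and 258 to 4.57 and 4.45 (50.4-fold, a log2 difference of -5.66 ± 0.078 (SE), adjusted p = 1.92e-20). ICAM1, which leukocytes bind, fell from 1034 and 1039 to 46.4 and 44.3 (22.6-fold, adjusted p = 1.83e-22). The fibronectin receptor subunit ITGA5 fell from 514 and 525 to 123 and 119 (-2.10, adjusted p = 4.03e-18) and the cadherin CDH11 from 109 and 116 to 30.6 and 31.4 (-1.84, adjusted p = 1.71e-15). Of 26 collagen chains and matrix proteins, 16 fell (61.5%) and 10 rose (38.5%). The share that rose was near the 38.2% of all tested genes. The tenascin TNC fell from 332 and 279 to 34.9 and 34.6 (-3.11, adjusted p = 2.36e-17) and fibronectin, FN1, from 1530.1 and 1406 to 493 and 466 (-1.61, adjusted p = 1.19e-15). SPARC, a matrix glycoprotein, rose from 0.572 and 0.504 to 6.56 and 6.08 (2.72, adjusted p = 5.15e-12).

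Matrix proteases and the plasminogen system fell in 11 of 15 (73.3%) and rose in 2, against 39.2% lower and 38.2% higher among all tested genes. The collagenase MMP1 fell from 326 and 268 to 31.9 and 32.5 (a log2 difference of -3.18 ± 0.072 (SE), adjusted p = 1.97e-17). Urokinase, PLAU, fell from 1082 and 1020.5 to 229.6 and 227 (-2.20, adjusted p = 4.23e-18), tissue plasminogen activator, PLAT, from 580.3 and 584 to 145 and 153 (-1.96, adjusted p = 2.46e-17), and their inhibitor SERPINE2 from 228 and 211 to 38.6 and 38.9 (-2.49, adjusted p = 4.05e-18). Activators and inhibitor thus fell together. Epithelial identity genes were lower in 11 of 17 (64.7%) and higher in 5 (29.4%), against 39.2% and 38.2% of all tested genes. With a mean of at least 5, 7 were lower, and fewer were higher without shSC 1% O2 replicate 1. EHF, an epithelial transcription factor of the ETS family, fell from 522 and 472 to 15.5 and 15.3 (31.3-fold, adjusted p = 2.97e-21). The tight junction protein CLDN1 fell from 131 and 101 to 10.9 and 11.6 (-3.30, adjusted p = 2.73e-16) and the keratin KRT7 from 159 and 159.5 to 41.7 and 44.3 (-1.88, adjusted p = 8e-16), while the hair keratin KRT81 rose from 25.6 and 24.5 to 95.6 and 96.9 (1.92, adjusted p = 6.25e-16). Mesenchymal identity genes had no common direction, with 6 of 12 (50%) lower and 4 (33.3%) higher, or 2 higher with a mean of at least 5. Among them S100A4, a calcium-binding protein of motile cells, rose from 24.02 and 27.2 to 73.5 and 78 (1.55, adjusted p = 1.58e-13), and TAGLN, an actin-binding protein, fell from 37.5 and 38.2 to 18.96 and 19.2 (-0.97, adjusted p = 1.21e-10).

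Interferon-stimulated genes, which limit viral replication, split: 16 of 33 fell and 11 rose, shares of 48.5% and 33.3% that lie near the 39.2% and 38.2% of all tested genes. BST2, which tethers budding viruses, fell from 47.05 and 49.5 to 6.11 and 6.29 (-2.86, adjusted p = 8.39e-17), IFI27 from 11.8 and 12.1 to 0.2404 and 0.141 (-4.17, adjusted p = 1.18e-13) and XAF1 from 18.8 and 18.7 to 3.61 and 4.07 (-2.15, adjusted p = 5.22e-13). SAMD9, an antiviral factor, rose from 47.9 and 48.7 to 107 and 112 (1.17, adjusted p = 1.89e-13). Class I antigen presentation genes were lower in 8 of 19 (42.1%) and higher in 5 (26.3%). Relative to their neighbours 1 was higher, and the median went from -0.13 to -0.38. With quantile normalization it was -0.0067. The heavy chain HLA-B fell from 288 and 282 to 119.6 and 124 (-1.22, adjusted p = 2.05e-14) and the class I light chain B2M from 516 and 520.4 to 324 and 341 (-0.64, adjusted p = 1.2e-10). HLA genes are polymorphic and alike, so their counts are uncertain. PSMB9, an immunoproteasome subunit, rose from 5.43 and 6.75 to 11.9 and 12.2 (0.93, adjusted p = 1.2e-07, or 0.51 relative to neighbours). CD74, the invariant chain of class II, fell from 166 and 172 to 5.08 and 6.12 (27.8-fold, adjusted p = 1.58e-19). CIITA, the activator of class II genes, had 5.43 and 6.38 under shSC and 3 reads over both shCHD4-labelled libraries, a ratio of 114 with a 95% counting interval of 38.5 to 553.

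Most genes of the cell cycle list went the other way. The cell cycle list rose in 26 of 36, 9 of them by 2-fold or more, and fell in 4 (median 0.40). CCNE2, a cyclin of S phase entry, rose from 15.2 and 18.99 to 72.4 and 67.8 (a log2 difference of 2.01 ± 0.078 (SE), adjusted p = 4.73e-14). The replication helicase subunit MCM5 rose from 21.3 and 24.3 to 65.9 and 65.6 (1.51, adjusted p = 1.23e-13) and MCM3 from 107 and 129.9 to 362 and 368 (1.63, adjusted p = 3.68e-14, or 1.02 relative to its neighbours). KIF20A, a kinesin of cytokinesis, rose from 57.1 and 71 to 192 and 199 (1.61, adjusted p = 3.66e-13). Mitotic members were mixed: CCNB1, CCNB2, CDC20, AURKB and CENPF did not pass, and CENPE and KIF11 were lower (-0.35 and -0.16). Others, such as BUB1 (0.54) and PLK1 (0.38), were higher by less than 2-fold. For CCNE2, MCM5, MCM3 and KIF20A the shSC replicate with the higher value was still below both shCHD4-labelled libraries. These 4 were chosen by their small p, and the labels did not overlap for 11234 of 12645 tested genes. Among CDK inhibitors and G1 cyclins 7 of 14 rose and 6 fell, against 38.2% and 39.2% of all tested genes, and the median was 0.37 or, relative to neighbouring genes, 0.18. CDKN1A, an inhibitor of cyclin-dependent kinases, fell from 249 and 259 to 84.6 and 86.3 (-1.56, adjusted p = 1.41e-15) and CCND2, a G1 cyclin, from 39.6 and 39.7 to 2.99 and 2.55 (-3.62, adjusted p = 9.24e-16), while CDKN2C, an inhibitor of CDK4 and CDK6, rose from 18.02 and 27.2 to 127 and 124 (2.48, adjusted p = 4.14e-13).

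Replication-dependent histone genes rose in 8 of 8 tested members, 6 by 2-fold or more (median 1.19), though with a mean of at least 5 only 5 were tested. These histones lie mostly on chromosome 6, and their RNA largely lacks a poly(A) tail, so the values cover the polyadenylated share. HIST1H2BK rose from 116 and 108 to 391 and 403 (1.82, adjusted p = 5.02e-17). The linker histone HIST1H1C rose from 72.5 and 63.2 to 185 and 194 (1.48, adjusted p = 7.11e-14), which was 0.85 relative to its neighbours. HIST1H2BD and HIST1H2AC rose by 1.46 and 1.15, or 0.83 and 0.53 relative to neighbours.

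In the NuRD complex 6 of 14 tested subunits rose and 4 fell, none by 2-fold. That is 42.9% and 28.6%, against 38.2% and 39.2% of all tested genes. The histone chaperone RBBP4 rose from 69.9 and 70.4 to 135 and 135 (0.94, adjusted p = 1.25e-12), RBBP7 from 129 and 131 to 185 and 194 (0.55, adjusted p = 1.9e-09) and the deacetylase HDAC2 from 161 and 159.8 to 214 and 218 (0.43, adjusted p = 3.94e-08). GATAD2B, a scaffold subunit, fell from 127 and 120.3 to 86.8 and 85.1 (-0.52, adjusted p = 9.48e-09). The median of 0.02 lay near that of all genes and changed sign without shCHD4 1% O2 replicate 1 (-0.01), and it was 0.16 with quantile normalization.

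The nuclear-encoded respiratory chain rose in 21 of 37 genes (56.8%) and fell in 8 (21.6%), against 38.2% and 39.2% of all tested genes. By 2-fold or more, 2 rose and 1 fell. With quantile normalization 5 genes passed as lower. NDUFA4 rose from 63.6 and 68.6 to 132 and 142 (1.05, adjusted p = 8.4e-12), the complex III subunit UQCRB by 0.94 (0.43 relative to its neighbours) and the succinate dehydrogenase subunit SDHC by 0.75. NDUFB9, a complex I subunit, fell from 48.05 and 49.4 to 16.7 and 17.7 (-1.47, adjusted p = 1.37e-12), or by 0.44 relative to its neighbours. Cytosolic ribosomal protein genes, whose reads can be shared with processed pseudogenes, rose in 13 of 35 (37.1%) and fell in 15 (42.9%), none by 2-fold. These shares lie near the 38.2% and 39.2% of all tested genes. With quantile normalization 8 fell, and relative to neighbouring genes 9 fell. RPL30 was 0.65 higher (0.41 relative to its neighbours), RPL13 was 0.55 higher, RPL35 was -0.61 and RPL8 -0.54. Relative to their neighbours RPL13, RPL35 and RPL8 changed sign, to -0.19, 0.078 and 0.13.

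Stress and signalling lists of mixed direction held large single changes. NRF2 target genes, which defend against oxidants, rose in 12 of 22 (54.55%) and fell in 8 (36.4%), against 38.2% and 39.2% of all tested genes. Their median of 0.29 was 0.08 relative to neighbouring genes. AKR1C3, an aldo-keto reductase, rose from 6.94 and 7.26 to 18.7 and 20.6 (1.41, adjusted p = 3.05e-11), and the ferritin chain FTH1 and the thioredoxin reductase TXNRD1 fell, with differences of -0.87 and -0.59 (adjusted p = 1.67e-12 and 1.55e-10). In the TGF-beta and BMP pathway 11 of 27 (40.7%) rose and 13 (48.15%) fell, shares near those of all tested genes. The type II receptor TGFBR2 fell from 901 and 867 to 257 and 269 (-1.75, adjusted p = 3.49e-17). Activin subunits moved in opposite directions: INHBA fell from 39.4 and 38.4 to 3.09 and 3.43 (-3.39, adjusted p = 1.8e-16) and INHBB rose from 18.5 and 20.3 to 105 and 104 (2.40, adjusted p = 5.44e-17). ID1, a BMP target that blocks helix-loop-helix factors, rose from 5.11 and 5.04 to 40.9 and 39.9 (2.88, adjusted p = 2.53e-16). Apoptosis and stress response genes fell in 12 of 19 (63.2%) and rose in 4 (21.05%), against 39.2% and 38.2% of all tested genes. GADD45A, a growth arrest gene, fell from 425 and 415 to 46.9 and 52.8 (-3.06, adjusted p = 3.46e-19), and TNFRSF10B, a death receptor for TRAIL, from 802 and 763 to 139.9 and 138 (-2.49, adjusted p = 2.38e-19). MCL1, which protects from apoptosis, and BBC3, which promotes it, fell, with differences of -1.47 and -2.45 (adjusted p = 3.36e-16 and 8.74e-14).

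The largest rises were in genes with little RNA under shSC, and no list fixed here covers them. IGFN1, an immunoglobulin-like protein of muscle, rose from 0.393 and 0.134 to 56.2 and 48.5 (70.02-fold, a log2 difference of 6.13 ± 0.14 (SE), adjusted p = 2.49e-17), against 15 reads in all under shSC. F13A1, the clot-stabilising transglutaminase factor XIII A, rose from 0.715 and 0.874 to 43.6 and 45.1 (34.7-fold, adjusted p = 1.85e-18). HSPA12A, a distant member of the HSP70 family, rose from 0.322 and 0.269 to 25.96 and 27.9 (34.5-fold, adjusted p = 2.86e-15). NUP210, a membrane protein of the nuclear pore, rose from 1.57 and 1.51 to 47.8 and 47.2 (23.5-fold, adjusted p = 2.67e-18). The cancer-testis genes MAGEA12 and CSAG1, both on the X chromosome, rose from 0.2502 and 0.3696 to 17.4 and 18.3 and from 0.393 and 0.168 to 10.99 and 10.6 (adjusted p = 3.47e-16 and 6.17e-14). Both belong to families with near-identical copies, so their counts are uncertain. AMPH, a protein of clathrin endocytosis, rose 19.2-fold, SCIN, which severs actin filaments, 17.7-fold and PLCB1, a phospholipase downstream of G proteins, 13.2-fold. LOC100505817 had 5.86 and 6.72 under shSC and 111 and 116 under the shCHD4 label (16.8-fold). The other 5, ARHGAP30, NAP1L3, MEGF6, SLC37A1 and GAS7, rose 12.3- to 14.6-fold. Lack of overlap between labels was part of the rule that chose the 15.

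Some genes had no read at all under 1 label at 1% O2. In both shCHD4-labelled libraries 7 tested genes had none, and folds are given as bounds against a floor of 3 reads over the group. TSPYL5 had 15.01 and 15.8 under shSC and was at least 294-fold lower. The type IV collagen chain COL4A5, at 10.7 and 11.1 under shSC, was at least 208-fold lower, and ACOT6, at 10.4 and 11.3, at least 207-fold lower. NLRP2, an inflammasome gene, was at least 166-fold lower, LCN2, an iron-sequestering lipocalin, at least 97.9-fold, and the class II chains HLA-DPA1 and HLA-DRB1 at least 55.7-fold and 51.8-fold. In both shSC libraries 2 tested genes had no read, LOC283174 and FAM205A, and FAM205A was at least 80.8-fold higher under the shCHD4 label, at 4.02 and 4.38.

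The label difference at 1% O2 was then set beside that at 20% O2, which comes from the other 4 libraries. At 20% O2 9559 genes (75.6%) passed. Of the 1083 genes lower by 2-fold or more at 1% O2, 894 were lower by 2-fold or more at 20% O2 too, which is 82.6% of the 1% list and 87.6% of the 1021 genes of the 20% list, and 1081 passed the threshold in the same direction. Of the 717 higher genes, 530 were shared, 73.9% of the 1% list and 85.1% of the 623 at 20% O2, and 714 passed in the same direction. None of the 1800 genes passed in the opposite direction. Most single genes named so far had like differences at both O2 levels: CXCL1 had -7.39 and -7.09, L1CAM -5.66 and -5.87, CA12 -5.24 and -5.11, and NUP210 4.55 and 4.50.

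The difference between the 2 label differences, tested as an interaction, passed for 551 genes (4.36%), of which 280 were higher and 271 lower at 1% than at 20% O2, while 2301 had an unadjusted p under 0.05. By 2-fold or more, 15 were higher and 10 lower. This count depended on single libraries: it was 251 and 245 without replicate 1 and 2 of shCHD4 at 1% O2, 317 without shSC 1% O2 replicate 1, 322 and 360 without shCHD4 20% O2 replicate 1 and 2, and 994 without shSC 20% O2 replicate 1. It was 155 with no filter or no variance trend. Of the 1800 genes that differed by 2-fold or more at 1% O2, 215 passed the interaction test. For 39 genes the 2 label differences were past the threshold in opposite directions, and 38 of these passed the interaction test.

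**Figure D5:**
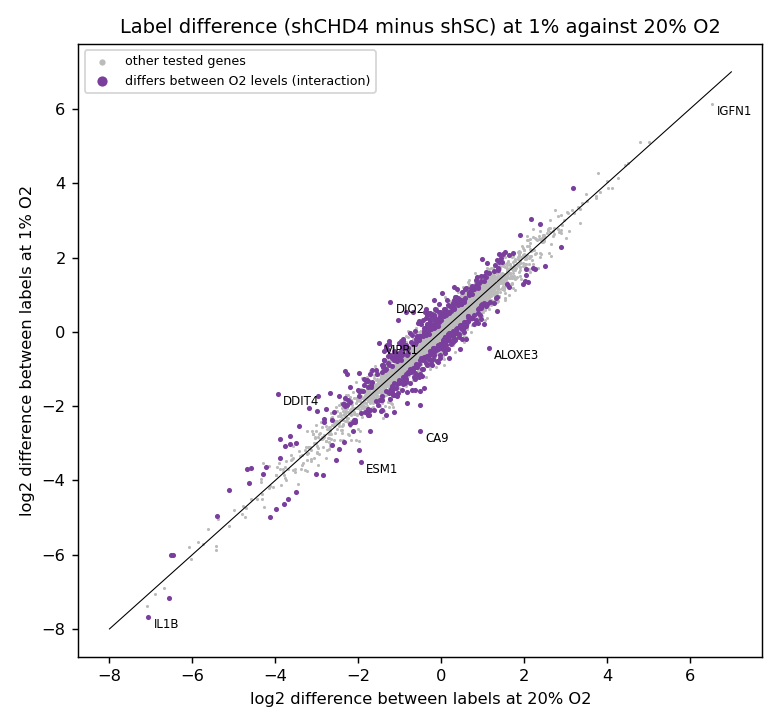
Log2 difference between labels at 20% O2 (x axis) and at 1% O2 (y axis) for 12645 tested genes, with the line of equal differences. Purple points are the 551 genes that passed the interaction test, and CA9 lies below the line and DDIT4 above it, with interactions of -2.16 and 2.25.

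HIF targets were found on both sides of the interaction, 8 higher and 10 lower of 51 (2.21% and 2.14% of all genes tested). DDIT4 had the largest gap between O2 levels, with label differences of -1.68 at 1% and -3.94 at 20% O2 (interaction 2.25 ± 0.069 SE, adjusted p = 2.67e-13). STC1, at -2.13 and -2.98, and VEGFA, at -1.28 and -1.87, also had the smaller fall at 1% O2 (adjusted p = 1.02e-06 and 4.28e-06). The fall was larger at 1% O2 for NDRG1, at -1.21 against -0.54, and IGFBP3, at -3.14 against -2.46 (adjusted p = 1.87e-06 and 1.15e-05). BNIP3 differed by -0.33 at 1% and -0.03 at 20% O2 (adjusted p = 0.0369). Its call was lost with no filter (adjusted p = 0.173), no variance trend (adjusted p = 0.214) and quantile normalization (adjusted p = 0.249), and without shCHD4 1% O2 replicate 1 or 2, shSC 1% O2 replicate 2, shCHD4 20% O2 replicate 1 or shSC 20% O2 replicate 1 (adjusted p = 0.0522 to 0.166). CA9 had an interaction of -2.16 (adjusted p = 2.63e-05), but its 20% O2 values rested on 18 and 5 reads per group. On recovered reads it was -0.88 with edgeR (adjusted p = 0.665) and -0.84 with DESeq2 (adjusted p = 0.726), so its call did not hold there.

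Outside the HIF list, MMP1 was higher at 1% than at 20% O2 under shSC, at 326 and 268 against 103 and 106, and the shCHD4-labelled libraries had 31.9 and 32.5 against 27.7 and 24.9. Its label difference was -3.18 at 1% and -1.98 at 20% O2 (interaction -1.20 ± 0.10 SE, adjusted p = 1.4e-06). DHRS2, a short-chain dehydrogenase, had 41.8 and 34.7 under shSC and 9.38 and 9.44 under the shCHD4 label at 1% O2, against 11.7 and 12.6 and 7.97 and 8.899 at 20% O2 (interaction -1.46, adjusted p = 2.69e-06). CDKN1A fell more at 1% than at 20% O2, -1.56 against -0.64 (adjusted p = 2.72e-07), as did ICAM1, -4.50 against -3.70 (adjusted p = 7.52e-07). In the other direction, VIPR1, a receptor for vasoactive intestinal peptide, had 30.9 and 30.3 under shSC at 20% O2 and 13.05 and 13.9 at 1% O2, while the shCHD4-labelled libraries lay from 10.2 to 11.4 at both levels (interaction 1.18, adjusted p = 5.56e-06). JDP2, an AP-1 repressor, had differences of -1.74 and -2.96 (adjusted p = 3.29e-05), and DMBT1, a scavenger receptor protein, -1.06 and -2.32 (adjusted p = 7.34e-05).

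For a few genes the direction between labels turned with the O2 level. DIO2, which activates thyroid hormone, was 0.79 at 1% and -1.23 at 20% O2 (interaction 2.02, adjusted p = 3.48e-05), and PDE7B, a phosphodiesterase, 0.53 and -0.84 (1.37, adjusted p = 5.41e-06). ALOXE3, an epidermal lipoxygenase, was -0.45 at 1% and 1.15 at 20% O2 (-1.59, adjusted p = 0.000529). Its 1% O2 difference did not pass with DESeq2 (adjusted p = 0.116) or without any 1 of the 4 libraries at 1% O2. Several further interactions rested on low counts. ESM1, a proteoglycan of endothelial cells, had -1.57 (adjusted p = 0.000795), lost with edgeR on reads (-1.08, adjusted p = 0.42). The calls of DNAH11 (-1.10), a dynein chain, and NXPH4 (1.36), a neurexophilin, were lost with no filter, where adjusted p was 0.0549 and 0.0589. The dynein chain DNAH17 (-1.08) lost its call without shCHD4 1% O2 replicate 1 or 2, shSC 1% O2 replicate 1 or shSC 20% O2 replicate 2 (largest adjusted p = 0.0738). The pseudogene RPLP0P2 (-1.09) lost it without shCHD4 1% O2 replicate 1 or 2, shSC 1% O2 replicate 1, shCHD4 20% O2 replicate 2 or shSC 20% O2 replicate 2 (largest adjusted p = 0.206), and also with no filter, quantile normalization, no variance trend or edgeR. The antisense RNA HIF1A-AS2 (1.22) lost it without shCHD4 1% O2 replicate 1, shSC 1% O2 replicate 2, shCHD4 20% O2 replicate 1 or shSC 20% O2 replicate 2 (largest adjusted p = 0.195), and also with no filter (adjusted p = 0.234), quantile normalization (0.0581) or no variance trend (0.221). The sources used here do not say whether counting used strand: reads of HIF1A-AS2 and HIF1A cannot be told apart where the genes overlap.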

How the data were processed

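Polyadenylated RNA of MDA-MB-231 cells was sequenced in 8 libraries, in 4 groups of 2 by hairpin label and O2 level. Build hg19 and the tools TopHat, featureCounts, edgeR, Picard 1.127, bcl2fastq 2.17 and FastQC 0.11.2 are listed in the submitters' processing notes. Annotation and strand setting: not given in the sources used here. Though its name says FPKM, the deposited table holds, per library, a signal that the authors made by dividing reads by a single factor: 100% of the values came out whole (within 0.01 reads) once divided by the value of 1 read. The choice of tests had assumed FPKM, and the test for such values was kept. Whole reads were recovered for edgeR 4.0.16 and DESeq2 1.42.0, run as alternatives (Python 3.11.15 and R 4.3.3).

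Of 19583 rows, 12645 with a mean of at least 1 were tested two-sided with limma 3.58.1 on log2(value + 0.5). The 4 group means were fitted together, with a trended prior variance (13.9 prior and 4 residual degrees of freedom), and p-values were adjusted by Benjamini-Hochberg (threshold 0.05). On simulated data the fit was checked against known changes. Few genes changed there, with a small fixed spread and no chromosome-wide shifts. The check therefore does not cover data in which most genes passed. With 2 libraries against 2, exact permutation cannot go below p = 0.33 and was not used. Fold changes are 2 to the power of the log2 difference. For chromosomes and start regions, 17289 names matched a RefSeq symbol, 1522 a synonym and 770 neither; that reference is of another build than the table.

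Named were CHD4, the 15 largest falls and rises and 8 largest interactions each way (past the threshold, highest group mean of 2 or more, no overlap between labels outside the interaction), for each of 31 lists the 4 members with the smallest p, and 10 fixed genes of the HIF pathway; some genes this rule names are not reported here. Members and lists were chosen with earlier results of these data known, so no list is independent support. Alternatives were other pseudocounts, filters, scalings, tools and fits, a replicate block, centring on neighbouring genes, and leaving out each library.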

Additional observations from a re-analysis of the deposited data

Results flagged for a closer look

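A label difference that was not the same at 1% as at 20% O2, by the interaction test in limma, was found for 551 of 12645 genes and for 51 of the genes named here. Values are the log2 difference between labels at 1% O2 minus that at 20% O2. The calls of 20 of the 51 held in every alternative that gave a value. In this group the label difference was higher at 1% O2 for DDIT4 (2.25), DIO2 (2.02), PDE7B (1.37), DMBT1 (1.27), JDP2 (1.22), VIPR1 (1.18), STC1 (0.86), VEGFA (0.59), KRT81 (0.57) and ADM (0.48). It was lower for ALOXE3 (-1.59), DHRS2 (-1.46), MMP1 (-1.20), CDKN1A (-0.93), ICAM1 (-0.80), TRAF1 (-0.80), IGFBP3 (-0.68), NDRG1 (-0.67), RELB (-0.54) and PLAT (-0.45).

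The other 31 lost the call in at least 1 alternative. The higher ones were NXPH4 (1.36), HIF1A-AS2 (1.22), NAP1L3 (0.67), C3 (0.51), MCM5 (0.49), IL6 (0.47), EHF (0.44), CDH11 (0.42), SLC2A3 (0.42), SLC7A11 (0.42), IL18 (0.40), KLF4 (0.39), MCM3 (0.36), KRT7 (0.33), SAMD9 (0.29), CCND1 (0.26), MYC (0.25) and MCL1 (0.22). The lower ones were CA9 (-2.16), ESM1 (-1.57), DNAH11 (-1.10), RPLP0P2 (-1.09), DNAH17 (-1.08), IL1B (-0.61), IL1A (-0.59), PDGFA (-0.50), TGFA (-0.36), ITGA5 (-0.34), THBD (-0.32), BNIP3 (-0.30) and SERPINE2 (-0.28).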

How the results depend on the processing

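The counts of higher and lower genes and of HIF targets lower under the shCHD4 label stayed within 1.5 times under every alternative run. The count of genes higher by 2-fold or more was 717 of 12645 tested as reported and 464 of 10758 tested with a mean of at least 5. The HIF target median was -0.238 with quantile normalization. The interaction count was 155 with no filter on low values, 155 with no variance trend, 384 with DESeq2 and 563 with edgeR, and ran from 245 to 994 when each library was left out, the lowest without shCHD4 1% O2 replicate 2 and the highest without shSC 20% O2 replicate 1; the cause was not tested. Only the 4 libraries at 1% O2 give no interaction. Centring on the 40 nearest genes, which removes changes shared with neighbours by its construction, reversed ABCC4 (-0.276), RPL8 (0.128), RPL35 (0.0784), RPL13 (-0.191), SLC7A5 (-0.474) and the ribosomal median (-0.0259). Leaving out each library gave ribosomal medians from -0.0384 to 0.0352 and NuRD medians from -0.0101 to 0.0599. Of 4395 recomputed single-gene values, 4187 kept direction and side of the threshold and 198 lost the call.

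Replicate numbers were only a label: the deviations of samples with the same number correlated, across genes, at r = 0.0703 between the labels at 1% O2, 0.124 between them at 20% O2 and -0.121 to 0.00161 over the other 4 pairs of groups. With the replicate number as a block, 4812 genes were higher, 4943 lower and 536 passed the interaction test. Depth limits the low genes: CA9 at 20% O2 rested on 18 and 5 reads per group.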

Other observations

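Of the lists outside the main description, some had mixed directions and others were mostly lower. Among all tested genes 39.2% were lower and 38.2% higher. Genes of the unfolded protein response were lower in 9 of 20 (45%) and higher in 7 (35%), with a median of -0.07. Those of cholesterol synthesis and uptake were lower in 13 of 26 (50%) and higher in 8 (30.8%), with a median of -0.16. Fatty acid synthesis genes were lower in 8 of 18 (44.4%) and higher in 8 (44.4%). Components and targets of the YAP and TEAD pathway, which responds to cell contact and tension, were lower in 12 of 18 (66.7%) and higher in 3 (median -0.33). Of 8 tested neuronal genes 5 were lower and 1 higher, and of 4 metallothioneins 2 and 1.

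On chromosome 13, where most genes were higher under the shCHD4 label, RB1, the retinoblastoma gene, had normalised read counts of 171 and 170.3 under shSC and 351 and 348 under the shCHD4 label (log2 difference 1.03, adjusted p = 5.3e-13) and was 0.22 higher relative to its 40 nearest genes. ZIC2, a zinc finger factor on the same chromosome, had 8.11 and 8.13 under shSC and 73.9 and 75.4 under the shCHD4 label (3.12, adjusted p = 5.11e-18). CCND1, a G1 cyclin, had 516 and 582 under shSC and 952 and 966 under the shCHD4 label (0.81, adjusted p = 2.81e-11). These 3 genes were chosen after their values were seen.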
